A study of Mus musculus with 12 samples.

Results

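The cells described here are those of the GFP- sort that carried transcripts of several border macrophage genes and none of the monocyte genes tested. They were chosen cell by cell from the measured counts: a barcode of a GFP- library was a member if it held at least 200 detected genes, at most 10% mitochondrial UMIs, UMIs of at least 3 of the 7 genes Mrc1, Pf4, Stab1, Ms4a7, Cd163, F13a1 and Lyve1, and no UMI of Ly6c2, Ccr2 or Plac8. A UMI (unique molecular identifier) is 1 counted transcript molecule. This gave 1201 of the 15672 GFP- cells that passed the first 2 filters, in a series of 30775 such cells. Because the rule reads the same transcripts that are then described, the levels of its 10 genes are given without a test, and genes that are expressed together with them were bound to differ too. The members are called marker-positive GFP- cells below, since their fit to the name of border macrophages differed with the number of markers they carried.

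Border macrophages, also called CNS-associated macrophages (CAMs), live in the meninges, the perivascular spaces and the choroid plexus, where they take up material from blood and cerebrospinal fluid through scavenger receptors and lectins and present antigen. Microglia, the macrophages of the brain tissue itself, share many genes with them but are marked by P2ry12, Tmem119 and the transcription factor Sall1. Border macrophages are known for Mrc1 (the mannose receptor CD206), Pf4 (a platelet-type chemokine), Cd163 (the receptor for haemoglobin bound to haptoglobin) and, in a subset low in MHC class II, the hyaluronan receptor Lyve1.

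The mice were C57BL/6J animals conditioned with busulfan, which clears the marrow and opens the brain to engraftment. They then received lineage-negative hematopoietic stem and progenitor cells of male donors, transduced with a lentiviral vector encoding GFP, either intravenously (i.v.) or intracerebroventricularly (i.c.v.), and all recipients later received non-transduced total bone marrow i.v. One female and 1 male recipient of each route gave a GFP- and a GFP+ library from CD45+ CD11b+ CX3CR1+ cells sorted from the dissociated brain, which makes 8 libraries from 4 mice. The labels give an age of 22 to 28 weeks, whereas the design text places collection 12 to 13 months after dosing. The paper likewise gives 12 to 13 months after transplantation for its single-cell cohort, which the labelled age does not match. The count tables themselves hold nothing on age. The GFP gate cannot separate non-transduced support marrow, or transduced cells with little GFP, from cells of the recipient. A further 4 libraries (microglia, neurons, astrocytes and blood cells) came from 1 untreated animal, labelled 8 to 12 weeks old, without replicates. Throughout, values of the 4 recipients are given in the order i.v. female, i.v. male, i.c.v. female and i.c.v. male. Levels are the UMIs of a gene per 1000000 UMIs of the summed class of cells (CPM), and fold changes come from edgeR's quasi-likelihood fit across all genes on these sums. They are given on the log2 scale with their standard error (±) and the Benjamini-Hochberg adjusted p, and each one given below passed an adjusted p under 0.05 unless stated otherwise. In a sum, a gene carried by few cells and one carried weakly by many cannot be told apart.

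The 8 libraries of treated mice held 4970758 to 16514669 UMIs in the cells kept. Marker-positive GFP- cells were deep: their median was 2457 to 4146 UMIs per cell, against 818 to 1018 UMIs in the remaining GFP- cells, and 20.3% to 35.0% of them were among the deepest 5% of barcodes of their library. Their median mitochondrial share was 2.98% to 3.12%, against 1.27% to 2.52%. No doublet caller was run. Of 27338 distinct barcodes of the treated libraries, 101 were seen in more than 1 library, and 8 members carried such a barcode.

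Marker-positive cells were a minority of every GFP- library. They made up 97 of 2675 cells in the i.v. female, or 3.63% (exact 95% binomial interval 2.95 to 4.41). In the i.v. male they were 217 of 4555 cells (4.76%, 4.16 to 5.42). In the i.c.v. female they were 532 of 4355 cells (12.2%, 11.3 to 13.2), and in the i.c.v. male 355 of 4087 cells (8.69%, 7.84 to 9.59). Both i.c.v. shares lay above both i.v. shares, with only 2 mice a route and no test. Among GFP+ cells of the same mice the same rule took 44.1%, 35.1%, 33.5% and 38.6%. The mean was 7.32% ± 3.92 (SD, n = 4) in the GFP- and 37.8% ± 4.71 (SD, n = 4) in the GFP+ sort, and no GFP- library reached the lowest GFP+ library. The difference was smaller at equal depth: with every barcode thinned to 1000 UMIs and shallower cells left out, the shares were 6.57% ± 2.79 and 19.8% ± 2.63, and with 500 UMIs they were 1.88% ± 0.571 and 6.53% ± 1.55 (SD, n = 4). Intervals cover counting error only, and no test was made of these shares, which the rule itself defines.

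**Figure D1:**
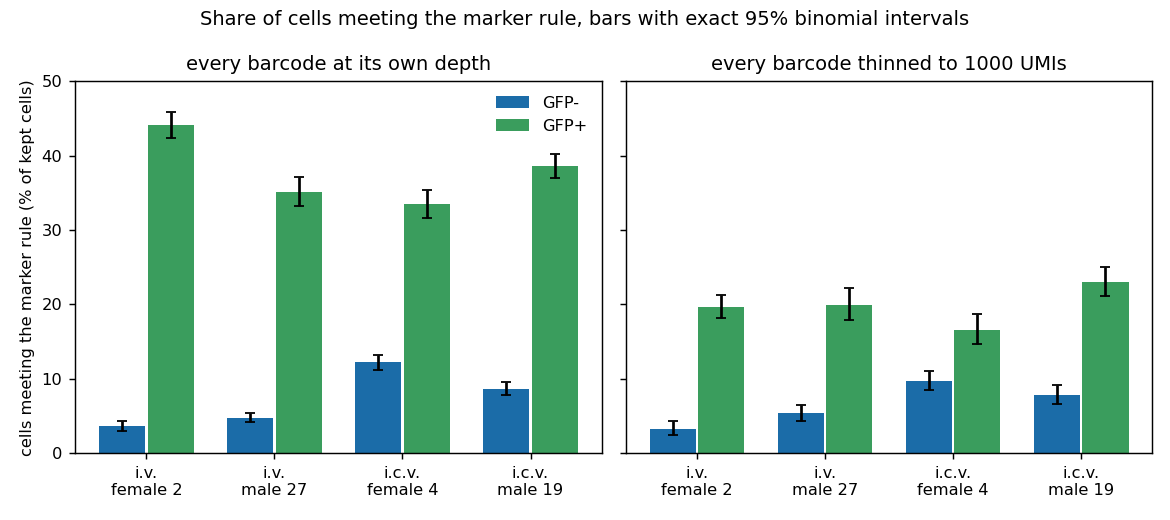
Share of kept cells that met the marker rule (y axis, percent) in each GFP- and GFP+ library of the 4 recipients, at full depth and after thinning to 1000 UMIs per cell, with exact 95% binomial intervals. GFP- shares ran from 3.63% to 12.2% and GFP+ shares from 33.5% to 44.1%, and after thinning the GFP+ shares were 16.6% to 23.0%.

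The untreated libraries give the background of the rule. No cell met it among 575 neurons, which allows a share of up to 0.522%, or among 1146 astrocytes, which allows up to 0.262%, although the median depth there was 6937 and 3395 UMIs. It took 19 of 1274 cells (1.49%) of the untreated microglia sort, whose remaining cells had a median of only 421 UMIs, and 3 of 341 blood cells. Of those 19 cells, 12 (63.2%) carried 5 to 7 of the markers, and as a sum they held 377 CPM of Cd209f and 341 CPM of Folr2, against 3.41 and 1.14 CPM in the remaining cells of that sort. Their P2ry12 was 221 CPM, against 1950 CPM. Thinned to 1000 UMIs, 12 of 152 cells of the untreated microglia sort met the rule (7.89%, exact 95% interval 4.15 to 13.4). With 500 UMIs, 10 of 482 did (2.07%, 0.999 to 3.78). The treated GFP- means at these depths were 6.57% and 1.88%, so the lower share at full depth did not hold at equal depth. In the treated GFP- libraries 36 cells with at least 3 markers were left out for a UMI of Ly6c2, Ccr2 or Plac8.

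The 7 genes of the rule did not contribute alike. Mrc1 was found in 92.3% of the 1201 cells, Stab1 in 87.5%, Ms4a7 in 82.6% and Pf4 in 65.8%. Rarer were F13a1 (the A subunit of coagulation factor XIII) in 36.1%, Cd163 in 20.2% and Lyve1 in 5.83%. In the remaining GFP- cells the shares were 4.23% to 15.6% for Mrc1, 33.0% to 38.8% for Stab1 and 0.388% to 1.81% for Cd163, at their lower depth. As levels, Mrc1 averaged 1024 CPM ± 232 (SD, n = 4) in the members and 96.0 CPM ± 51.9 in the remaining cells, Pf4 1069 ± 289 and 39.9 ± 21.1 CPM, and Cd163 128 ± 63.0 and 6.95 ± 4.75 CPM. Stab1 differed least, 625 ± 136 and 368.5 ± 24.1 CPM. GFP+ cells of the same rule held less Cd163 (18.6 ± 4.34 CPM), F13a1 (104 ± 43.1 against 301 ± 119 CPM) and Lyve1 (7.95 ± 6.03 against 51.1 ± 32.6 CPM) while Ms4a7 was at a like level (1104 ± 174 against 951 ± 120.0 CPM).

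How well the members matched their name depended on the number of markers. The members comprised 513 cells with exactly 3 markers, 432 with 4, 144 with 5, 83 with 6 and 29 with 7, and 1425 GFP- cells with 2 markers lay just outside the rule. Cd209f, a C-type lectin of perivascular macrophages, averaged 7.80 CPM in cells with 2 markers, 46.1 ± 38.2 with 3, 19.2 ± 7.70 with 4 and 431 ± 239 with 5 to 7 (SD, n = 4 libraries). In single libraries the 5 to 7 marker cells held 231, 399, 320.2 and 775 CPM. The jump lay between 4 markers and the pooled class of 5 to 7, and was present in every library. Cells with exactly 5 markers were not summed alone. A cell with 5 or more of the 7 markers must carry Cd163, F13a1 or Lyve1, so genes expressed together with these were bound to rise in that class.

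Other border macrophage genes outside the rule stepped up at the same place. Cbr2, a carbonyl reductase, went from 24.8 ± 11.01 CPM with 4 markers to 299 ± 73.7 CPM with 5 to 7, and Folr2, the folate receptor beta, from 9.83 ± 2.17 to 269 ± 82.9 CPM. The chemokine gene Ccl7 went from 62.1 ± 14.6 to 1122 ± 383 CPM and the lectin Clec10a from 26.0 ± 18.1 to 204 ± 139.7 CPM. Apoe, which carries lipid between cells, did not follow: it averaged 25773 ± 6824, 68599.8 ± 8252, 95418 ± 8795 and 56293 ± 7637 CPM across the same classes and was highest with 4 markers. Summed without Apoe, the border macrophage genes outside the rule held 5130 to 5894 CPM with 3 markers, 5765 to 7122 CPM with 4 and 11030 to 14214 CPM with 5 to 7, against 3722 to 4810 CPM with 2.

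Microglia genes ran in the other direction. P2ry12, an ADP receptor, averaged 1314 ± 234 CPM with 2 markers, 624 ± 321 with 3, 532 ± 165 with 4 and 261 ± 42.3 with 5 to 7. Tmem119, a membrane protein of microglia, averaged 383 ± 97.0 CPM with 4 markers and 114 ± 32.9 with 5 to 7. Sall1 averaged 217 ± 62.4 CPM with 2 markers and 61.3 ± 30.9 with 3. It was level between 4 markers (21.7 ± 8.62 CPM) and 5 to 7 (21.6 ± 8.23 CPM). The summed microglia list was 26467 to 29264 CPM with 4 markers and 16474 to 18870 CPM with 5 to 7. The border macrophage profile was thus concentrated in the 256 cells with 5 to 7 markers (21.3% of members). The 945 cells with 3 or 4 markers held P2ry12, Tmem119 and the summed microglia list at higher levels, and little Cd209f, Cbr2 or Folr2. Their Sall1 was higher with 3 markers only. The median depth was 1133 to 1579 UMIs per cell with 3 markers, 4122.5 to 6760.5 with 4 and 4570.5 to 6269 with 5 to 7, so that 4 and 5 to 7 markers were alike in depth. No test was made between classes that the rule itself defines.

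**Figure D2:**
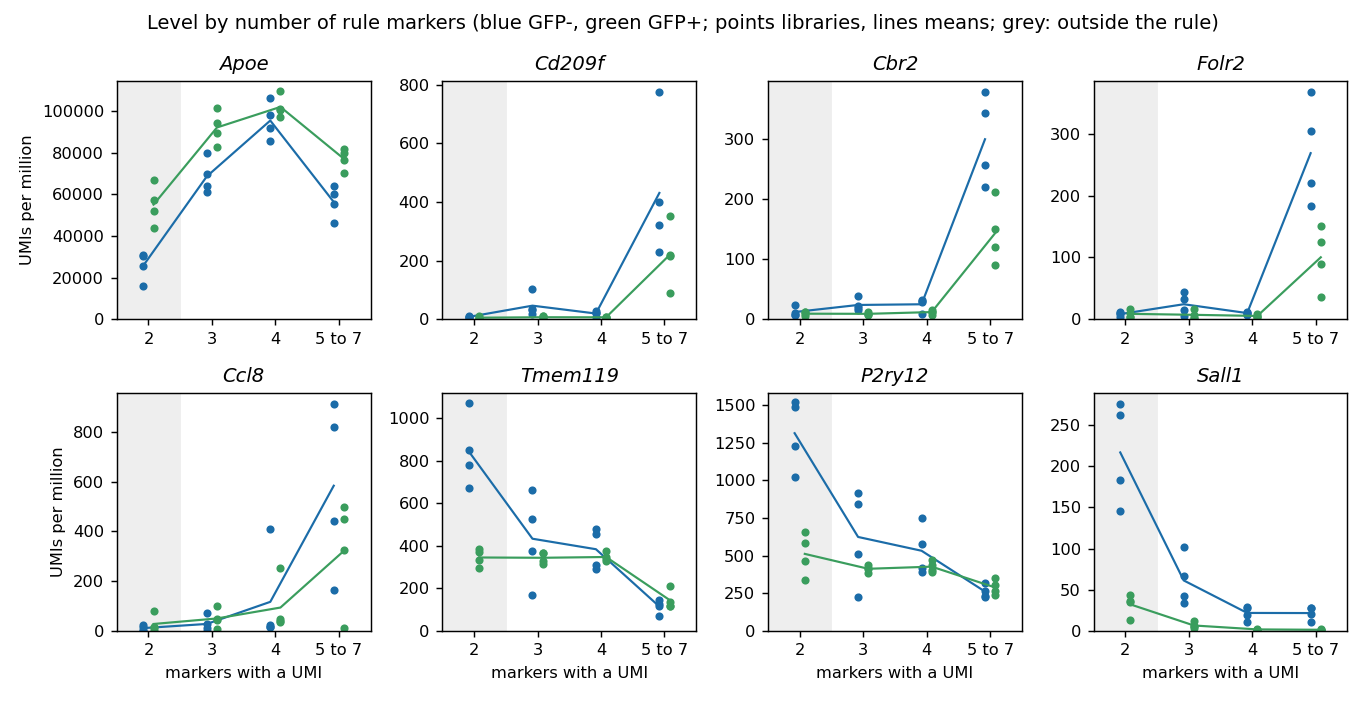
Level (y axis, CPM) of 8 genes by the number of rule markers with a UMI (x axis), blue for GFP- and green for GFP+ libraries, 1 point per library and lines for means, with cells just outside the rule on grey. Cd209f, Cbr2 and Folr2 were higher in the pooled class of 5 to 7 markers than with 4 in both sorts. Tmem119 and P2ry12 were lowest with 5 to 7 markers, and Sall1 was higher in GFP- than in GFP+ libraries at every number of markers.

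Against the remaining GFP- cells of the same library, most tested border macrophage, scavenger, iron-handling and interferon-stimulated genes were higher in the marker-positive cells, and most microglia identity and neutrophil genes were lower. Of 11184 genes tested with the library as a block, 2466 were higher (22% of genes tested) and 2522 lower (22.6%) at an adjusted p under 0.05. With library totals alone in place of TMM scaling factors the split became 1377 higher and 4470 lower, and the median log2 fold change of all genes moved from -0.06 to -0.37, so changes are best read relative to that shift. TMM factors of 0.869 to 0.936 in members and 1.08 to 1.16 in the remaining cells put fitted log2 fold changes 0.293 to 0.364 above the ratio of the CPM values printed here. The lists below were chosen with earlier results of these data known, and their counts are to be read against 22% and 22.6%.

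Of 32 border macrophage genes outside the rule, 30 were higher and 1 lower, with a median log2 fold change of 3.02. The strongest of them by the naming rule were chemokines, lectins and receptors. Ccl8, which attracts monocytes, was 232, 346, 111 and 227 CPM in the members and 2.00, 14.3, 4.91 and 29.3 CPM in the remaining cells, a log2 fold change of 4.56 ± 0.33 (adjusted p = 1.22e-07). Folr2 was 161, 119, 60.2 and 51.5 CPM against 1.78, 5.36, 6.91 and 4.42 CPM, a log2 fold change of 4.50 ± 0.32 (adjusted p = 1.09e-07). For both genes every member class lay above every remaining class.

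Cd209f was 110.5, 172, 88.1 and 210.0 CPM in the members and 3.11, 10.4, 12.0 and 9.66 CPM in the remaining cells (log2 fold change 4.28 ± 0.23, adjusted p = 1.47e-08). Cbr2 was 169.9, 143, 69.0 and 74.8 CPM against 1.33, 7.32, 12.6 and 5.08 CPM (log2 fold change 4.26 ± 0.37, adjusted p = 5.99e-07). Clec4n, the fungal receptor dectin-2, was 80.7, 174, 49.8 and 101 CPM against 6.89, 3.57, 10.9 and 7.21 CPM (log2 fold change 4.01 ± 0.34, adjusted p = 5.27e-07). None of these 3 overlapped between the classes. In GRCm38 coordinates, Cd209f lies on chromosome 8 at 4102787 to 4105835 beside Cd209g at 4134098 to 4137707, Folr2 on chromosome 7 at 101839988 to 101857194, Cbr2 on chromosome 11 at 120729489 to 120732114, and Ccl7 and Ccl8 in 1 chemokine cluster on chromosome 11 at 82045712 to 82047525 and 82115185 to 82116799. Reads of the near-identical copies within the Cd209, Ms4a, Ccl, Ifi200, H2 and Hspa1 families can be shared between genes or left uncounted.

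Apoe was among the most abundant transcripts of these cells. It was 67460.4, 77618, 78847 and 81836 CPM in the members and 6601, 5705, 19148 and 9944 CPM in the remaining cells (log2 fold change 3.38 ± 0.21, adjusted p = 4.34e-08). Among the remaining cells the i.c.v. female stood highest for Apoe. Selenop, which codes for the selenium transport protein, was 1901 to 2506 CPM against 899.8 to 1519.6 CPM (log2 fold change 1.11 ± 0.10). Igf1, the growth factor, was 111 to 169.9 against 11.3 to 35.3 CPM (3.15 ± 0.25), and Dab2, an adaptor of clathrin-coated pits, 434 to 730.3 against 40.7 to 143 CPM (3.13 ± 0.26). The collectin receptor Colec12 and the ficolin Fcna were low but higher in the members, 8.43 to 37.9 and 8.97 to 34.0 CPM against 1.43 to 6.06 and 0.164 to 1.09 CPM.

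Of the same list Ednrb, an endothelin receptor, did not pass (3.59 to 14.1 against 1.15 to 9.28 CPM, adjusted p = 0.065). Outside the lists the naming rule gave Wfdc17, a secreted protein of activated macrophages, with 888, 547, 392 and 638 against 49.3, 37.8, 126 and 70.9 CPM (log2 fold change 3.49 ± 0.30), and Pla2g7, the platelet-activating factor acetylhydrolase, with 238, 208, 203 and 115 against 17.1, 12.0, 63.7 and 14.6 CPM (3.28 ± 0.29).

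**Figure D3:**
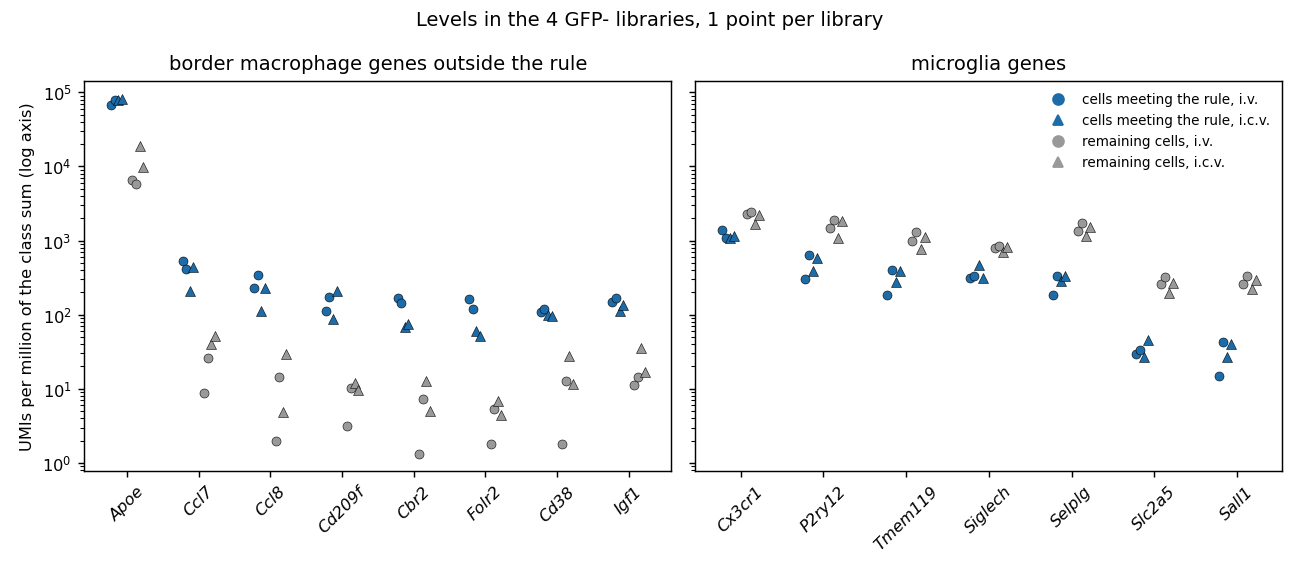
Levels (y axis, CPM, log axis) of 8 border macrophage genes outside the rule and 7 microglia genes in the 4 GFP- libraries, 1 point per library and class, circles for i.v. and triangles for i.c.v. recipients. The 8 border macrophage genes shown lay higher in cells meeting the rule than in the remaining cells, and the 7 microglia genes lower, with Cx3cr1 differing least. The genes were picked for the figure. Of the full border macrophage list, 30 of 32 were called higher and 1 lower. Of the microglia list, 19 of 22 were called lower and 1 higher. Over all genes tested, 22% were called higher and 22.6% lower.

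Of 22 microglia identity genes, 19 were lower, 1 was higher and 2 did not pass, with a median log2 fold change of -0.85. Sall1, a transcription factor needed for microglia identity, was 14.9, 43.3, 26.4 and 40.1 CPM in the members and 257, 336, 220.3 and 296 CPM in the remaining cells (log2 fold change -2.76 ± 0.14, adjusted p = 5.77e-09). Its paralog Sall3 was 2.12 to 10.8 against 73.5 to 104 CPM (-3.13 ± 0.19), and the fructose transporter gene Slc2a5 26.8 to 45.5 against 193 to 327 CPM (-2.57 ± 0.13).

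P2ry12 and Tmem119 were lower by less than Sall1. P2ry12 was 302, 629.7, 392 and 580.3 CPM against 1484, 1899, 1093 and 1809 CPM (log2 fold change -1.41 ± 0.12, adjusted p = 5.64e-07), and Tmem119 185, 398, 278 and 390.1 against 976, 1288, 774 and 1127 CPM (-1.41 ± 0.13). Cx3cr1, the fractalkine receptor used in the sort, was 1399.8, 1088, 1082 and 1141 against 2248, 2407, 1681 and 2188 CPM (-0.53 ± 0.11). Cst3, the protease inhibitor cystatin C (-0.53), was lower without overlap but remained at 14568 to 16802 CPM. The exception was Fcrls, a receptor-like gene of mouse microglia, at 1489, 1406, 2059.8 and 1483 against 1432, 1455, 1535 and 1286 CPM (0.49 ± 0.10). The classes overlapped for Fcrls, it did not pass with library totals alone or at equal depth, and the i.c.v. female carried the highest value. Csmd3, St3gal5 (the synthase of ganglioside GM3) and Gm32849 completed the lower genes of the naming rule, with log2 fold changes of -3.39 ± 0.21, -3.23 ± 0.20 and -3.38 ± 0.21.

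Of 18 scavenger and endocytic genes tested, 12 were higher and 4 lower (median 1.06), and some of these genes also stand in the border macrophage list. As a sum over the list, the members held 10499.9 to 13859 CPM and the remaining cells 11846 to 12399.8 CPM, so that the summed levels overlapped. Msr1, the class A scavenger receptor, was 119, 81.1, 71.7 and 57.4 against 2.89, 7.498, 22.6 and 11.1 CPM (log2 fold change 3.11 ± 0.35), and Cd36 55.2 to 67.1 against 4.00 to 34.9 CPM (2.38 ± 0.29). The lysosomal protease Ctsb (2354 to 3366 against 1412 to 2004 CPM) and the lysosomal glycoprotein Cd68 (1.02) were higher by less. Axl and Mertk, receptors for dying cells of the same family, went apart: Axl was 174 to 256 against 44.7 to 127 CPM (1.82 ± 0.14) and Mertk 161 to 219.9 against 440.4 to 525 CPM (-0.95 ± 0.11). Lrp1 (-0.80) and the asparaginyl protease Lgmn (-0.28) were lower too.

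Of 14 iron and heme genes tested, 11 were higher and 0 lower at the threshold (median 1.07); with library totals alone 10 were higher and 1 lower. Blvrb, a biliverdin reductase, was 478, 313, 302 and 280.0 CPM in the members and 71.3, 71.6, 108 and 88.4 CPM in the remaining cells (log2 fold change 2.29 ± 0.16). The ferritin chains Fth1 and Ftl1 were 6873 to 16745 and 5749 to 7488 CPM against 3579 to 6757 and 2590.0 to 3453 CPM (1.35 and 1.38). Heme oxygenase Hmox1 was 125, 282, 269 and 264 against 51.8, 136, 142 and 135 CPM (1.35 ± 0.10), low in both classes of the i.v. female. The iron exporter Slc40a1 did not pass (87.1 to 215 against 145 to 204 CPM, adjusted p = 0.54).

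Of 17 chemokine genes tested, 10 were higher and 5 lower (median 1.49). Ccl7 was 527, 413, 208 and 436 against 8.89, 25.7, 40.4 and 50.9 CPM (log2 fold change 3.94 ± 0.35), Ccl24, which attracts eosinophils, 39.1 to 113 against 11.3 to 18.2 CPM (2.90 ± 0.19), and Ccl12 699 to 1204 against 244 to 446 CPM (1.73 ± 0.15). Cxcl13, which guides B cells, was 261, 60.6, 12.3 and 17.4 against 4.89, 6.78, 3.46 and 3.44 CPM (3.90 ± 0.45). The i.v. female held most of the Cxcl13, and with cells thinned to 1000 UMIs its fold change was -0.28 ± 0.99 and did not pass (adjusted p = 0.89); without the deepest 5% of barcodes it was 0.72 and did not pass. Cxcl2, the neutrophil attractant, was 2133, 1472, 1925 and 1453 against 147, 217, 772 and 296 CPM (2.86 ± 0.28). Ccl4 was lower (1013 to 1953 against 1664 to 3033 CPM, -0.39 ± 0.11), as was Ccl5 (-1.71), and Ccl6 (-0.53) and Ccl9 (-0.41) were lower, although without the deepest 5% of barcodes they were at 0.029 and 0.052 and did not pass.

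**Figure D4:**
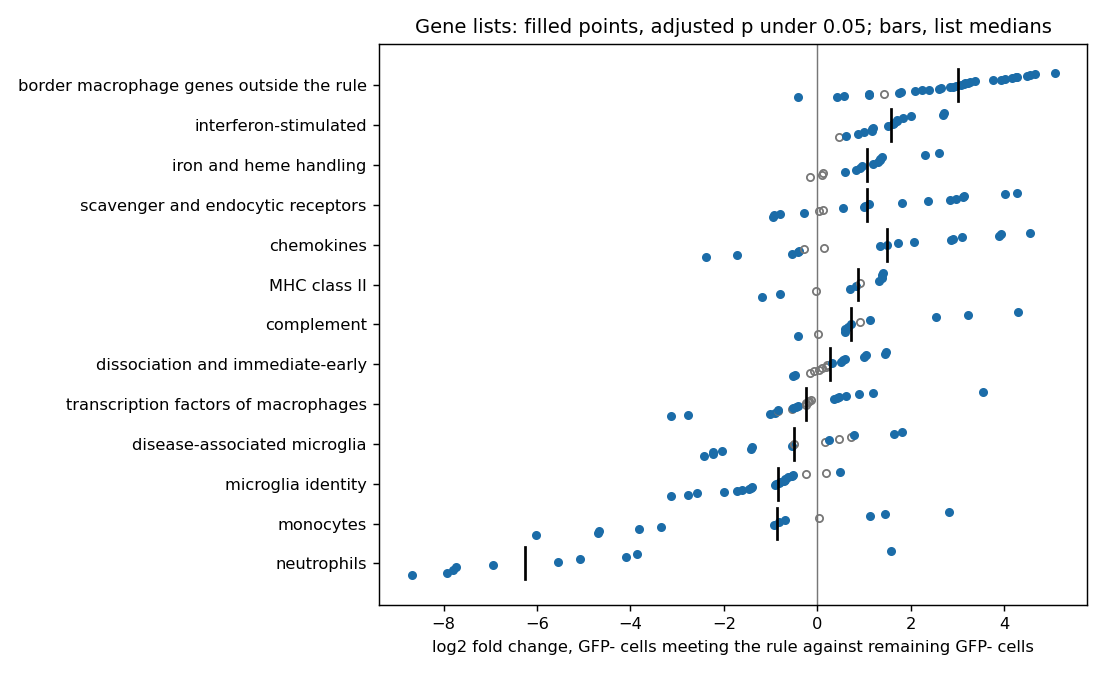
Log2 fold change (x axis) of each tested gene of 13 lists between GFP- cells meeting the rule and the remaining GFP- cells, filled points for an adjusted p under 0.05 and vertical bars for list medians. The medians were 3.02 for border macrophage genes outside the rule, 1.57 for interferon-stimulated genes, -0.85 for microglia identity and -6.25 for neutrophil genes.

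Interferon-stimulated genes were higher almost throughout: 15 of 16 passed and none was lower (median 1.57), and 13 of 16 passed with library totals alone. Bst2, the virus-tethering protein tetherin, was 1164, 1260.4, 1431 and 1209 CPM in the members and 190.0, 199.9, 380.5 and 237 CPM in the remaining cells (log2 fold change 2.70 ± 0.13, adjusted p = 3.82e-09). Ifi207, of the DNA-sensing Ifi200 family, was 312 to 341 CPM in the members and at most 122 CPM in the remaining cells (2.72 ± 0.20), and Ifitm3 318 to 609.6 against 103 to 237 CPM (1.84 ± 0.19). Classical inducible members were low and differed less, with Isg15 at 65.8 to 101 against 41.8 to 63.2 CPM (0.88 ± 0.17) and Ifit1 at 5.38 to 23.4 against 5.89 to 7.64 CPM (0.999 ± 0.36). Ifit3b did not pass (adjusted p = 0.46).

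Of 10 MHC class II genes tested, 6 were higher and 2 lower (median 0.87). H2-Aa was 2693, 1559, 1101 and 2104 CPM in the members and 762, 556, 1197 and 974 CPM in the remaining cells (log2 fold change 1.40 ± 0.22), and the invariant chain Cd74 4839, 3379, 2602 and 4232 against 1654, 1157, 2564 and 2014 CPM (1.38 ± 0.20). In the i.c.v. female H2-Aa was slightly lower in the members as CPM, and Cd74 nearly level. The peptide-loading inhibitor chains H2-Oa and H2-Ob were lower, 8.97 to 14.9 against 22.2 to 45.8 CPM and 9.74 to 15.6 against 25.1 to 36.7 CPM, although both missed the threshold with cells thinned to 1000 UMIs. Within the members, the cells with a Lyve1 UMI held less class II RNA than those without in all 4 libraries: as summed class II CPM, 9885 (11 cells) against 13860 in the i.v. female, 2396 (22 cells) against 8613 in the i.v. male, 759 (16 cells) against 6241 in the i.c.v. female and 3017 (21 cells) against 10848 in the i.c.v. male. Among GFP+ cells of the rule the i.v. female went the other way, with 15274 CPM (11 cells) against 12397 CPM without Lyve1. In the other GFP+ libraries the cells with a Lyve1 UMI held less. Since Lyve1 is a gene of the rule and each sum of cells with Lyve1 holds few cells, these values are a description.

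Of 11 complement genes tested, 8 were higher and 1 was lower (median 0.72). C4b was 195, 109, 48.3 and 70.6 against 5.56, 14.1, 11.8 and 15.7 CPM (log2 fold change 3.22 ± 0.33), C2 4.98 to 29.2 against 0.655 to 1.25 CPM (4.29 ± 0.45) and properdin, Cfp, 33.0 to 70.1 against 3.93 to 14.4 CPM (2.53 ± 0.29). The abundant C1q chains were higher by less, C1qa at 7628 to 8773 against 5693 to 6820.0 CPM (0.72 ± 0.09). Of 22 transcription factors tested, 7 were higher and 8 lower. Cebpb (0.90) and Maf (0.42) were higher, although Maf did not pass with library totals alone. Mef2a (-0.84), Zeb2 (-0.52) and Irf8 (-0.42), factors active in microglia, were lower without overlap.

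Of 15 genes of the disease-associated microglia programme, 4 were higher and 7 lower. Cd63, a tetraspanin of late endosomes, was 1183 to 1259 against 377 to 581 CPM (log2 fold change 1.63 ± 0.11), while another tetraspanin, Cd9, was 367, 318, 473 and 412 against 1428, 1301, 1137 and 1311 CPM (-1.39 ± 0.12). Spp1, osteopontin, was 46.7, 13.0, 89.3 and 16.8 against 363, 41.1, 485 and 65.3 CPM (-2.05 ± 0.15), with both female recipients above both males in both classes, and when 2 markers were enough for membership its fold change was 0.62 and did not pass (adjusted p = 0.12). Lpl (-2.24), Itgax (-2.24) and Csf1 (-2.42) were also lower.

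Markers of other cells were checked in the same sums. Neutrophil genes were low in the members, 17.3 to 49.8 CPM summed over 11 genes, and ran from 68.9 to 9208 CPM in the remaining cells, where the i.c.v. female stood apart with 2824 CPM of S100a8 and 3879 CPM of S100a9. Of 10 neutrophil genes tested, 9 were lower in the members, and S100a8, Camp, S100a9, Retnlg and Ngp led the lower genes of the naming rule. Their part in the differences from the remaining cells of that library was not tested. Of 12 monocyte genes, 3 were higher and 8 lower, on a list the rule's own exclusion of Ly6c2, Ccr2 and Plac8 acts on. Lyz2, lysozyme, was 10982, 6068, 6919 and 6507 against 1255, 765, 2038 and 1495 CPM (2.82 ± 0.19), while S100a6 was 10.6, 1.08, 3.07 and 3.59 against 106, 26.6, 195 and 66.0 CPM (-4.68 ± 0.28). No T, NK or erythroid gene was high enough to test, and these lists summed to at most 2.12 and 0 CPM in the members. All 4 choroid plexus and ependymal genes tested were lower (Ttr 151, 119, 54.0 and 134 against 303, 1727, 927 and 1856 CPM), as were 6 of 7 endothelial genes and 4 of 7 genes of dividing cells, and 0 of 3 B cell and 0 of 2 fibroblast genes passed. Of 9 oligodendrocyte genes 1 was lower. Of 7 dendritic cell genes 1 was higher and 5 lower, of 8 astrocyte genes 1 was lower, and of 2 neuron genes 1 was higher.

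Immediate-early and heat-shock genes, which respond to tissue dissociation, were mixed. Of 16 genes 8 were higher and 2 lower (median 0.27), and with library totals alone 5 were higher and 5 lower (median -0.05). Hspa1a was 82.8, 1545, 1397 and 1631 CPM in the members and 80.9, 508, 775 and 545 CPM in the remaining cells, so that the i.v. female stood far below the other 3 recipients in both classes. Fos was 3449.7, 2639.8, 2882 and 3291 against 2669, 1489, 1734 and 1955 CPM (log2 fold change 0.99 ± 0.10) and Egr1 1003, 459, 460.2 and 451 against 1654, 909, 729.8 and 819 CPM (-0.48 ± 0.10).

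The 4513 GFP+ cells taken by the same rule asked whether the GFP- cells differed from marker-positive cells of the engrafted, vector-carrying compartment. Both groups were chosen by the same rule, so they were bound to be more alike than members and remaining GFP- cells. The count of genes is also not comparable with that against the remaining cells, where the library was a block. In a fit without a block, 26 of 10099 genes tested were higher in the GFP- cells (0.257%) and 0 were lower (0%) at an adjusted p under 0.05 by edgeR. At an unadjusted p under 0.05 there were 718 genes, and DESeq2 gave 73 higher and 7 lower. With the mouse as a block, which the labels allow since both sorts came from the same animals, 157 genes of 10616 were higher (1.48%) and 27 lower (0.254%), and all 26 genes were among the 157.

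Of the 26 genes, 2 were on the microglia identity list and 3 on the border macrophage list. Sall1 was 14.9, 43.3, 26.4 and 40.1 CPM in the GFP- and 2.86, 2.18, 4.58 and 2.47 CPM in the GFP+ cells (log2 fold change 3.42 ± 0.28, adjusted p = 3.06e-04). Slc2a5 was 29.7, 33.5, 26.8 and 45.5 against 4.35, 3.36, 6.87 and 2.47 CPM (3.01 ± 0.27, adjusted p = 5.04e-04), and Csmd3 8.497 to 35.3 against 1.19 to 2.29 CPM (3.61 ± 0.39). All 3 lay higher in every GFP- library. In the remaining GFP- cells they were higher still, as given above for Sall1 and Slc2a5.

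Of 31 border macrophage genes tested, 3 passed, with a median log2 fold change of 0.78 (median of all genes 0.0019), and with the block 20 of 32 were higher and 1 was lower. Folr2 was 161, 119, 60.2 and 51.5 CPM in the GFP- and 28.4, 18.8, 11.3 and 28.9 CPM in the GFP+ cells (log2 fold change 1.97 ± 0.36, adjusted p = 0.048). Cbr2 was 169.9, 143, 69.0 and 74.8 against 31.8, 35.2, 19.7 and 43.1 CPM (1.67 ± 0.29, adjusted p = 0.043). Neither gene overlapped between the sorts. Their calls were less stable than that of Sall1, which passed under every one of 20 alternatives: Cbr2 passed under 13 of 21 and Folr2 under 11 of 21, all with their direction kept, and the log2 fold changes ran from 0.86 to 1.88 for Cbr2 and from 1.53 to 2.20 for Folr2. Single libraries whose omission ended the call of Folr2 were the GFP- libraries of the i.v. female, i.v. male and i.c.v. female and the GFP+ libraries of the i.v. male and i.c.v. female. Cd209f, at 110.5, 172, 88.1 and 210.0 against 45.8, 41.3, 12.7 and 68.5 CPM, missed the threshold without the block (1.76 ± 0.40, adjusted p = 0.12) and passed it with the block (1.88, adjusted p = 2.05e-06). Apoe, at 67460.4, 77618, 78847 and 81836 against 93105, 90768, 95031 and 101425 CPM, was lower in the GFP- cells only with the block (-0.33, adjusted p = 0.014).

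Among the other genes, Ccl2, the monocyte chemoattractant, was 416, 508, 380.5 and 407 against 185, 297, 223 and 248 CPM (log2 fold change 0.83 ± 0.15, adjusted p = 0.043), C2 4.98 to 29.2 against 0.343 to 0.593 CPM (4.88 ± 0.57) and Cfp 33.0 to 70.1 against 7.23 to 19.3 CPM (1.61 ± 0.29). Marcksl1, a regulator of the actin cortex, was 181, 254, 224 and 266 against 85.7, 139, 115 and 131 CPM (0.98 ± 0.16) and Fam102b 65.9, 102, 65.9 and 89.7 against 40.3, 44.3, 37.5 and 49.6 CPM (0.90 ± 0.15). Cd209b, a further lectin of the Cd209 cluster, was 12.3 to 51.0 against 1.59 to 4.75 CPM (2.82 ± 0.47). Csf1 passed although its values overlapped, since the i.v. female held 2.12 CPM. The other 12 were Crybg3, Atp8a2, Adora3, Pkp4, Gp9, Nav3, Jam2, Khdrbs3, Klk8, Cyr61, Cpne8 and Upk1b, of which Nav3 was the most abundant (19.1 to 59.2 against 1.19 to 10.55 CPM), and Fscn1, an actin-bundling protein, was 22.2 to 47.6 against 9.10 to 13.4 CPM (1.71 ± 0.22). Which of these passed depended on single libraries: without the GFP- library of the i.v. male 15 genes were higher, and without that of the i.c.v. male 16. The count was 17 with at least 4 markers, 13 with cells thinned to 1000 UMIs and 284 when 2 markers were enough.

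Most microglia receptors and antigen-presentation genes did not separate the sorts beyond the spread between mice. P2ry12 was 302, 629.7, 392 and 580.3 CPM in the GFP- and 361, 391, 428 and 418 CPM in the GFP+ cells (log2 fold change 0.24 ± 0.18, adjusted p = 0.86), and Tmem119 185 to 398 and 292 to 345 CPM. Cd74 was 4839, 3379, 2602 and 4232 against 4755, 3705, 542 and 1587 CPM (0.51 ± 0.47, adjusted p = 0.92), and its large spread lay in the GFP+ cells, where both i.v. recipients stood above both i.c.v. recipients. Spp1 and H2-Aa did not pass either (-0.99 ± 0.65 and 0.57 ± 0.57).

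The number of markers differed between the sorts as well. Cells with 5 to 7 markers were 17.7% to 33.0% of members in the GFP- and 8.44% to 14.1% in the GFP+ libraries. Within that class Cd209f averaged 431 ± 239 CPM in the GFP- and 219 ± 107 CPM in the GFP+ cells, Folr2 269 ± 82.9 and 100.1 ± 49.95 CPM, and Cd163 313 ± 73.4 and 91.5 ± 11.3 CPM (SD, n = 4). The summed border macrophage genes without Apoe were 11030 to 14214 CPM and 8720 to 10872 CPM. Sall1 was 21.6 ± 8.23 against 1.23 ± 0.422 CPM in the same class and 61.3 ± 30.9 against 6.46 ± 3.44 CPM with 3 markers, while Tmem119 was 433 ± 213 and 343 ± 26.8 CPM with 3 markers.

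Between i.v. and i.c.v. recipients no gene passed in the marker-positive GFP- cells. Of 10616 genes tested by edgeR, 0 were higher and 0 lower (0%), 543 had an unadjusted p under 0.05, and DESeq2 called 1. With 2 mice a route the comparison has little power, and a p above the threshold does not show equal levels. The genes nearest to it, named after their values were seen, were Cxcl13, at 261, 60.6, 12.3 and 17.4 CPM (adjusted p = 0.69), and Timd4, the phosphatidylserine receptor TIM-4, at 19.1, 24.9, 1.15 and 5.38 CPM (adjusted p = 0.92). Both were higher in both i.v. recipients, and Timd4 rested on few UMIs. The medians of the border macrophage and microglia lists were 0.36 and -0.10 (i.v. minus i.c.v., log2), against -0.01 for all genes.

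In the interaction term, 49 of 11184 genes showed a larger difference between members and remaining cells after i.v. dosing (0.438%) and 1 after i.c.v. dosing (0.00894%). The count was 11 and 0 by DESeq2 and on leaving out 1 library the larger count ran from 24 (without the i.c.v. female) to 151 (without the i.c.v. male). Ccl7 led the named genes with 2.02 ± 0.36 (SE, log2), and its remaining-cell levels of 8.89, 25.7, 40.4 and 50.9 CPM moved more than its member levels of 527, 413, 208 and 436 CPM. The same held for Dab2, with 591, 730.3, 434 and 527 CPM in the members and 40.7, 72.1, 143 and 83.4 CPM in the remaining cells (1.48 ± 0.27). Pla2g7 (1.81 ± 0.31), Wfdc17 (1.65 ± 0.32), Cxcl2 (1.53 ± 0.31), Ifitm3 (1.18 ± 0.18) and Lyz2 (1.15 ± 0.20) were the others among the genes already described; for each the remaining cells of the i.c.v. female held the highest level of the 4 recipients. Without the i.c.v. female, 6 of these 7 genes lost their call, with Ccl7 as the exception, 5 did so with library totals alone and 4 by DESeq2, and none of the 7 kept its call under every alternative. Among the border macrophage list 6 of 32 genes passed (median 1.13). Fn1, Retnla, Orm1 and Mmp12, singled out after their values were seen, passed on the 97 members of the i.v. female, which held 57.4, 72.2, 14.9 and 147 CPM of them, against at most 8.38 CPM in the members of the other mice.

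Sex-linked and vector transcripts bear on where the cells came from. EGFP, the vector's reporter, whose protein the sort gated on, was found in 0 of the 97, 217, 532 and 355 members, which allows up to 3.09%, 1.38%, 0.564% and 0.845% of cells with a UMI, whereas 15.9%, 11.8%, 18.0% and 8.57% of GFP+ cells of the same rule, which were deeper, held one. With cells thinned to 1000 UMIs the GFP+ shares were 3.83%, 4.43%, 3.73% and 1.98%, and 0 of 80, 177, 456 and 301 members allowed up to 3.75%, 1.69%, 0.658% and 0.997%. At 500 UMIs the GFP+ shares were 1.83%, 1.38%, 1.14% and 0.586%, of which only that of the i.c.v. female lay above the limit for the members, so that at this depth the difference was not detectable in the other mice. In the female recipients most members carried Xist, the RNA of the inactive X chromosome: 70 of 97 and 432 of 532. When cells were thinned to 500 UMIs, Xist remained detectable in 47.4% (Clopper-Pearson 95% interval 37.2 to 57.8) and 50.2% (45.9 to 54.5) of members, against 78.8% (77.2 to 80.3) and 56.8% (55.2 to 58.4) of the remaining cells. A Y-linked transcript (Ddx3y, Eif2s3y, Kdm5d or Uty) was found in 11 of 97 (11.3%) and 20 of 532 (3.76%), against 1.28% and 0.994% of the remaining cells, which were shallower. At 500 UMIs per cell the shares were 4.12% (exact 95% interval 1.13 to 10.2) and 1.32% (0.531 to 2.69) in members against 0.582% (0.326 to 0.958) and 0.680% (0.445 to 0.995) in the remaining cells. In the i.c.v. female the 2 intervals overlapped, so that a difference was not detectable at this depth. The share of the i.v. female rested on 4 of 97 cells. At 1000 UMIs its shares were 2.50% (2 of 80 members, 0.304 to 8.74) and 0.601% (8 of 1332 remaining cells, 0.260 to 1.18). These intervals overlapped, so a difference was not detectable there either. In GFP+ cells of the rule, 58.8% and 66.0% of cells of the females held a Y-linked transcript at their own depth.

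In the male recipients, both the animal and the donors of the transduced cells were male, and a Y-linked transcript was found at 500 UMIs per cell in 14.7% and 14.1% of members and 17.3% and 15.9% of the remaining cells. Xist was nevertheless present in some members. In the i.v. male, 4 of 217 members held it. In the i.c.v. male, 57 of 355 members did (16.1%), 9 of them together with a Y-linked transcript, and at 500 UMIs per cell the share was 11.5% (exact 95% interval 8.42 to 15.3) in members and 1.39% (1.04 to 1.82) in the remaining cells of the same library. Among GFP+ cells of the rule it was 0 of 796 and 1 of 1365. One of the 57 cells carried a barcode also seen in another treated library. The paper states that every donor animal of this experiment was male, but it does not name the sex of the support marrow separately. The source of these cells was not tested.

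The Xist cells of the i.c.v. male were spread over the marker classes, 23 of 168 cells with 3 markers, 22 of 114 with 4 and 12 of 73 with 5 to 7. As sums, the 48 cells with Xist and no Y-linked transcript held 77491 CPM of Apoe (95% Poisson interval 76430 to 78562) and 506 CPM of P2ry12 (423 to 599), and the 181 cells with a Y-linked transcript and no Xist held 84335 CPM (83784 to 84888) and 589 CPM (544 to 637). Cd209f was 418 CPM (344 to 504) against 133 CPM (112 to 156), and Ccl8 72.2 CPM (43.5 to 113) against 283 CPM (252 to 317). These are sums over cells of 1 mouse, the intervals cover counting error only, and no test over animals was possible. Without cells that carried a transcript of the other sex, the border macrophage list had a median of 0.67 between GFP- and GFP+ cells. Folr2, Cd209b, Cfp, Crybg3 and Marcksl1 no longer passed there.

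**Figure D5:**
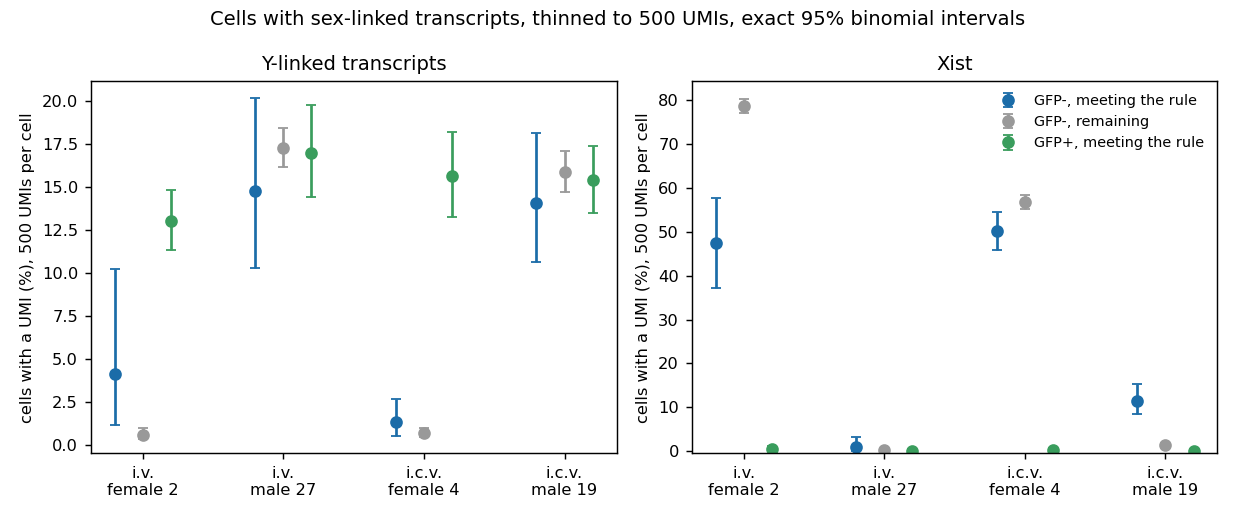
Share of cells with a Y-linked transcript (left) and with Xist (right) at 500 UMIs per cell (y axes, percent) in the 4 recipients, for GFP- cells meeting the rule, remaining GFP- cells and GFP+ cells meeting the rule, with exact 95% binomial intervals. Xist in the i.c.v. male was found in 11.5% of cells meeting the rule and 1.39% of the remaining cells.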

How the data were processed

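Cells were sorted from dissociated brains as CD45+ CD11b+ CX3CR1+, and 3′ single-cell libraries were made from the GFP- and GFP+ fractions. The authors deposited UMI count matrices, made with Cell Ranger 3.1.0 per the file headers and the mm10 build per the labels, without normalisation; EGFP is a row of the treated libraries only. Here, barcodes under 200 detected genes or over 10% mitochondrial UMIs were dropped, the marker rule was applied, and counts were summed per library and class, so that the mouse and not the cell was the replicate. The members and gene lists were chosen with earlier results of these data known.

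Sums were compared with edgeR 4.0.16 (limma 3.58.1, R 4.3.3; TMM factors, filterByExpr, glmQLFit and glmQLFTest, two-sided, Benjamini-Hochberg adjustment over all genes tested, threshold 0.05). Members and remaining cells were compared with the library as a block, GFP- and GFP+ cells without one, and i.v. with i.c.v. in a fit of 4 groups of sort and route that shared one estimate of spread. Where the mouse was the block, the pairing came from the labels, since both sorts of a number are the same animal; deviations from the group means correlated by 0.339, 0.0605, 0.246 and 0.183 within animals, and by at most 0.170 between different ones. Within a sort, each route holds 2 separate mice. The GFP- and GFP+ groups hold the same mice, and the fit of 4 groups treated the 2 sums of a mouse as independent.

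Named genes were the rule's genes, the called genes of each list with the highest CPM in members (2 to 6 a list) and any a result turned on, and the 10 largest fold changes each way against the remaining cells (5 between the sorts), among called genes of at least 50 CPM in the higher group that moved one way in every mouse. Exact (Clopper-Pearson) 95% intervals cover counting error only, and a count of 0 allows 3 counts. Positions are from GENCODE on GRCm38. Some genes are not reported here. The fits were tested on simulated data. Alternatives were DESeq2 1.42.0, upper-quartile factors, other low-count, barcode and marker limits, thinning each cell to 1000 UMIs, other remaining cells, sex as a covariate and leaving out each library. Library totals alone, leaving out the deepest 5% of barcodes, leaving out cells with transcripts of the other sex, and leaving out each library for the route dependence were chosen after seeing the data. Python 3.11.15, scipy 1.17.1 and pandas 2.3.3 were used.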

Additional observations from a re-analysis of the deposited data

Results flagged for a closer look

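Among the 99 values over 4 GFP- libraries that were tested for a library far from the others, 10 were flagged (Dixon's criterion, which chance meets in about 5% of groups). The i.v. female stood below the other mice in marker-positive cells for Lrp1 (125 CPM), Zeb2 (480.1 CPM), Ifi207 (312 CPM) and Hspa1a (82.8 CPM), and above them for Egr1 (1003 CPM). The i.c.v. female stood above the others for Fcrls (2059.8 CPM), Siglech (475 CPM) and the neutrophil gene Ltf (10.7 CPM, the others at 0) and below them for Pltp (74.7 CPM). The i.v. male stood above the others for the proliferation gene Mki67 (5.41 CPM). For Ifi207 the other mice held 338 to 341 CPM, so that the gap was small in size.

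The difference of marker-positive from remaining GFP- cells depended on route by the interaction term for 49 genes, larger after i.v. dosing, and for 1 gene, larger after i.c.v. dosing. As i.v. minus i.c.v. on the log2 scale, the named genes were Ccl7 (2.02), Pla2g7 (1.81), Wfdc17 (1.65), Cxcl2 (1.53), Dab2 (1.48), Ifitm3 (1.18) and Lyz2 (1.15). Without the i.c.v. female, 6 of these 7 genes, all but Ccl7, lost their call. Leaving out the GFP- library of the i.v. female gave 77 and 5 genes, of the i.v. male 80 and 8, of the i.c.v. female 24 and 4, and of the i.c.v. male 151 and 6. Neutrophil genes summed at up to 9208 CPM in the remaining cells of the i.c.v. female. Of 10 neutrophil genes tested for route dependence, 0 were called higher and 0 lower (median 2.18). Their part in this comparison was not tested.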

How the results depend on the processing

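Against the remaining cells, 59 of 97 named genes kept direction and call under every alternative run, and 1462 of 1621 single values did. Thinning to 1000 UMIs gave 690 higher and 849 lower genes and library totals alone 1377 and 4470. Directions turned without the deepest 5% of barcodes for Ccl6 (0.029), Ccl9 (0.052), Stmn1 (0.10), Klrd1 (0.34) and S100a10 (0.71), at 1000 UMIs for Cxcl13 (-0.28), S100a10 (0.28) and Ccl9 (0.31), with library totals alone for Ctsz (-0.071), against remaining cells with no UMI of the rule's genes for S100a10 (0.27), and with 2 markers for Spp1 (0.62); none of these turned values passed. Leaving out 1 library gave 2012 to 2388 higher and 1849 to 2423 lower genes. Between the sorts, 451 of 556 values were kept. Genes higher and lower in GFP- cells numbered 73 and 7 by DESeq2, 110 and 3 without a low-count filter, 70 and 2 without the deepest barcodes, 13 and 1 at 1000 UMIs, 284 and 52 with 2 markers, and 157 and 27 with the replicate block, and the higher ones 17 both with stricter barcode limits and with 4 markers and 52 with sex as a covariate. Leaving out 1 library gave 15 to 37 and 0 to 1, the lowest without the GFP- libraries of the i.v. male (15) and i.c.v. male (16). Without the block of members and remaining cells 2267 genes were higher and 2248 lower, against 2466 and 2522 with it. In that fit 16 of the 97 named genes did not keep their call. Between routes, DESeq2 called 1 gene higher in i.v., no low-count filter 54 higher and 60 lower, and leaving out 1 library 0 to 3 and 0 to 1. For the route dependence, DESeq2 and library totals alone each gave 11 and 0 genes, no filter 130 and 12, and leaving out 1 library 24 to 151 and 4 to 8. Mean shares of GFP- cells meeting the rule were 1.88% at 500 UMIs and 15.98% with 2 markers, and 5.69% to 8.56% without 1 library. GFP+ shares were 19.8% at 1000 UMIs, 6.53% at 500 UMIs, 49.4% with stricter barcode limits, 58.1% with 2 and 21.3% with 4 markers, and 35.7% to 39.3% without 1 library. At their own depth, a Y-linked transcript was held by 11.3% of members in the i.v. female and 3.76% in the i.c.v. female, and 16.1% of the i.c.v. male held Xist. The cause of these shifts was not tested. Depth limits rare transcripts most in the i.v. female, whose members summed to 470765 UMIs.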
